A study of Mus musculus with 2 samples.

Results

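The genes described here are 10 that mark cell types of the stomach lining: Gkn1, Gkn2, Tff1 and Muc5ac of surface mucous cells, Tff2, Muc6 and Gkn3 of mucous neck cells and Brunner gland-like cells, Gif and Pgc of chief cells, and Atp4b of parietal cells. They were read in RNA of the proximal intestine of mice, at every probe set (a group of short probes that reads 1 transcript) annotated to a single gene symbol. Of the 10 genes, 9 were measured, by 11 of the 34958 probe sets with 1 symbol. Gif is listed there under its current symbol, Cblif. Muc6 had no probe set annotated to it alone, so its expression was not analysed here. The genes were chosen partly on the CD36KO to WT differences of these same arrays, so those differences are a description and were not tested.

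The study compared wild-type (WT) C57BL/6 mice with mice of that background that were null for CD36 in the germline (CD36KO). CD36 takes up long-chain fatty acids at the cell membrane. All animals ate chow freely, and neither age nor sex was stated in the labels. RNA of 3 animals was pooled per genotype and each pool was read on 1 Affymetrix array, so n = 1 per group, no value has a replicate error, and precision is limited by the number of arrays. The deletion is present in every tissue of the CD36KO mice. Both pools were the proximal section of the whole intestine, and in such bulk tissue fewer cells of a type and less RNA per cell cannot be told apart.

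The gastric surface is covered by mucous cells that secrete the mucin Muc5ac, the trefoil peptide Tff1 and the gastrokines Gkn1 and Gkn2, small proteins with a BRICHOS domain. Deeper in the glands, neck cells make Muc6 and Tff2, chief cells make pepsinogens such as Pgc, and parietal cells secrete acid through the proton pump whose beta subunit is Atp4b. Brunner glands, which lie under the duodenal mucosa just beyond the stomach, make Muc6 and Tff2 as well.

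The surface genes Gkn1, Gkn2 and Tff1 and the neck and Brunner gland-like genes Gkn3 and Tff2 differed in opposite directions. Gkn1, Gkn2 and Tff1 were 13.3-fold, 12.4-fold and 4.55-fold higher in the CD36KO pool, and Gkn3 and Tff2 were 1.69-fold and 1.62-fold lower. Muc5ac, Gif, Pgc and Atp4b all lay within 1.5-fold. Of the 9 genes measured, 3 were at least 1.5-fold higher, beside 3.81% of all 18194 named genes on the array, and 2 were at least 1.5-fold lower, beside 2.6%. At 2-fold, 3 were higher and 0 lower, beside 1.09% and 0.423% of all named genes, and at 3-fold the same counts stood beside 0.39% and 0.0769%. Since these differences were known when the genes were proposed, nothing is read from those counts. The median difference of the 9 genes was 0.39 (log2, CD36KO minus WT), against -0.01 over all named genes.

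**Figure D1:**
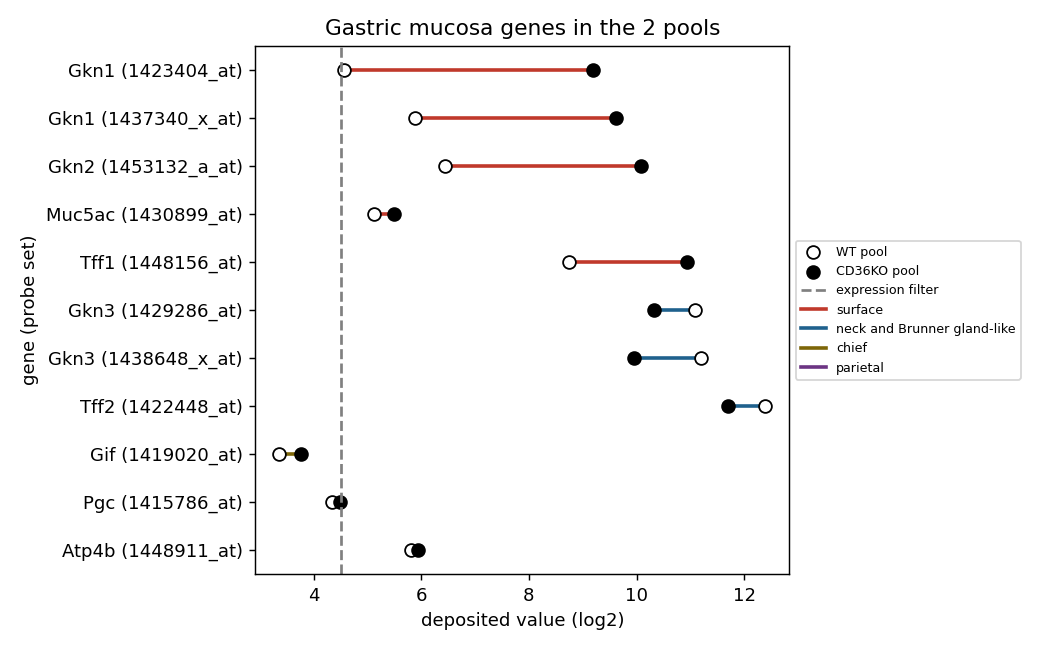
Deposited log2 value (x axis) of each probe set of the gastric genes (y axis) in the WT pool (open circle) and the CD36KO pool (filled circle), with 1 array per pool. Line colours give the cell type, and the dashed line is the expression filter at 4.51; the longest lines are those of Gkn1 and Gkn2, while Gkn3 and Tff2 run the other way.

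Gkn1, a gastrokine of surface mucous cells, was read by a pair of probe sets. The one with the higher mean, whose name ends in _x_at, read 5.89 (log2) in WT and 9.62 in CD36KO, a difference of 3.73. The other read 4.56 and 9.20, a difference of 4.64 or 24.9-fold. Both probe sets were therefore high in CD36KO and low in WT. The second WT value was 0.05 above the expression filter of 4.51, which is the median over all probe sets of the higher of their values. The table has no detection calls, so that value cannot be told from no signal and the 24.9-fold depends on an unknown background. The suffix _x_at marks probes that may also bind related transcripts.

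Gkn2, the other gastrokine of surface cells, read 6.45 in WT and 10.08 in CD36KO, a difference of 3.63. Its difference and that of Gkn1 were 0.10 apart. Among the 34958 probe sets with 1 symbol, ranked from the highest difference, the Gkn1 probe sets had ranks 7 and 15 and Gkn2 had rank 16. Of the 2507 probe sets within 0.5 (log2) of the mean level of Gkn2, 2 differed at least as far upward, Gkn2 included. The genes were chosen partly on these differences, so the ranks and this share are a description and no test. The same holds for the shares given below for Muc5ac and Atp4b.

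Gkn3, a gastrokine of neck cells, showed the opposite pattern at both of its probe sets. The one with the higher mean read 11.09 in WT and 10.33 in CD36KO, a difference of -0.76. The other, an _x_at probe set, read 11.20 in WT and 9.95 in CD36KO, a difference of -1.25, or 2.38-fold lower. Gkn3 was thus well above the expression filter in both pools, and its probe sets shared the direction while differing in size. The Gkn1 to Gkn3 ratio was 22.4-fold higher in CD36KO than in WT, and the Gkn2 to Gkn3 ratio 20.9-fold higher. With the mean over probe sets these became 36.5-fold and 24.8-fold. With the other probe set of Gkn1 and of Gkn3 they became 59.4-fold and 29.5-fold, so the size of the ratios depends on the probe set while their direction does not. The 36.5-fold and 59.4-fold use the Gkn1 probe set whose WT value cannot be told from no signal. Both therefore also depend on an unknown background.

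These gastrokines are adjacent on mouse chromosome 6, in the order Gkn1, Gkn2, Gkn3 among protein-coding genes of the RefSeq table. The flanking genes, named by position, differed less: Antxr1, an anthrax toxin receptor, by 0.50 (log2), and Bmp10 by 0.25, from values below the filter. The 250 bases before the start of each gastrokine gene are shown because neighbouring genes of 1 family differed in opposite directions. They are from RefSeq, build GRCm38.p6, each read 5' to 3' on the gene's own strand, at chr6:87350916-87351165 (minus strand) for Gkn1, chr6:87373115-87373364 (plus strand) for Gkn2 and chr6:87388936-87389185 (minus strand) for Gkn3. Capitals mark matches to any of 4 motifs on either strand.
Gkn1: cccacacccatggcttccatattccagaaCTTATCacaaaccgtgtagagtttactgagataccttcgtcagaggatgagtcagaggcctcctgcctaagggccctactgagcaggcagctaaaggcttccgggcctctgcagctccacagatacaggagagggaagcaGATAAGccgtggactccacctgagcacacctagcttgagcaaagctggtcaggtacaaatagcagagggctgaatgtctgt
Gkn2: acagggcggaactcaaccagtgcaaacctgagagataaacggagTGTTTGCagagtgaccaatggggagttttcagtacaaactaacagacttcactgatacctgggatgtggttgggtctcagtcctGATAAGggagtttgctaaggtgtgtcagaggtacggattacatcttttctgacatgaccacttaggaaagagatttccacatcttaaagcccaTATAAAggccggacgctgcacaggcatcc
Gkn3: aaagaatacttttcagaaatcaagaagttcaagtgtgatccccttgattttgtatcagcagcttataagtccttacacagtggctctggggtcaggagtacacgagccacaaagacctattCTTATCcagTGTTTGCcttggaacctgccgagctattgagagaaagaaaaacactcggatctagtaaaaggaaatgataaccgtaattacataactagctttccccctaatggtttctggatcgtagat

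The motifs searched were GATAAG of GATA factors, TGTTTNC of forkhead factors, TATAAA of the TATA box and TTTATNG of CDX factors, where N is any base, and the marked matches do not overlap. GATAAG or its reverse complement occurred in all 3 windows, at 2 places in the Gkn1 window and at 1 place each in those of Gkn2 and Gkn3, and in 6.55% of all 32851 windows of this length. The forkhead letters occurred in the Gkn2 and Gkn3 windows (17.8% of all windows), and TATAAA in that of Gkn2 but not in those of Gkn1 and Gkn3 (12.4%). CDX letters, present in 9.81% of windows, were not in these 3 windows. The GATA letters were thus shared by the genes that were higher and the gene that was lower, and a match is a description of letters, not a binding site. Of the other members with a window in the table, Pgc held TATAAA, and the windows of Muc6 and Cblif held 0 matches to the 4 motifs.

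Tff1, the trefoil peptide of surface cells, read 8.75 in WT and 10.94 in CD36KO, a difference of 2.19. Tff2, the trefoil peptide of neck cells and Brunner glands, read 12.39 in WT and 11.69 in CD36KO, a difference of -0.70. The Tff1 to Tff2 ratio was 7.37-fold higher in CD36KO. Tff3, the trefoil peptide of goblet cells, read 13.19 and 13.36, a difference of 0.17. Tff3, Tff2 and Tff1 follow each other on chromosome 17, so this cluster held 1 gene that was higher, 1 that was lower and 1 near level. Abcg1 (0.18) and Tmprss3 (-0.31, below the filter), the genes at its ends, were also within 1.5-fold.

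Muc5ac, the gel-forming mucin of the gastric surface, differed less than the other surface genes. It read 5.11 in WT and 5.50 in CD36KO, a difference of 0.39 or 1.31-fold. The values were 0.60 and 0.99 above the filter, and 15.0% of the 4459 probe sets of similar level differed at least as far upward. The ratio of Muc5ac to Tff1 was 3.48-fold lower in CD36KO. Along chromosome 7, Muc2, the goblet cell mucin, was 2.08-fold higher (11.71 in WT and 12.77 in CD36KO), and Muc5b, a mucin best known from the airways, differed by 0.21. The mucin of neck cells, Muc6, lies in the same cluster.

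Chief cell genes were below the expression filter in both pools. Gif, which encodes gastric intrinsic factor for vitamin B12 uptake, read 3.37 in WT and 3.76 in CD36KO. Pgc, which encodes the pepsinogen progastricsin, read 4.34 and 4.50, the CD36KO value being just under the filter. Their differences of 0.39 and 0.16 are between values that cannot be told from no signal. Atp4b, the parietal cell pump subunit, read 5.81 in WT and 5.94 in CD36KO, a difference of 0.12, and 37.6% of the 4319 probe sets of similar level differed at least as far upward. Its partner Atp4a, the catalytic subunit, read 3.69 and 3.68, below the filter. The 7 members above the filter passed it in both pools.

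**Figure D2:**
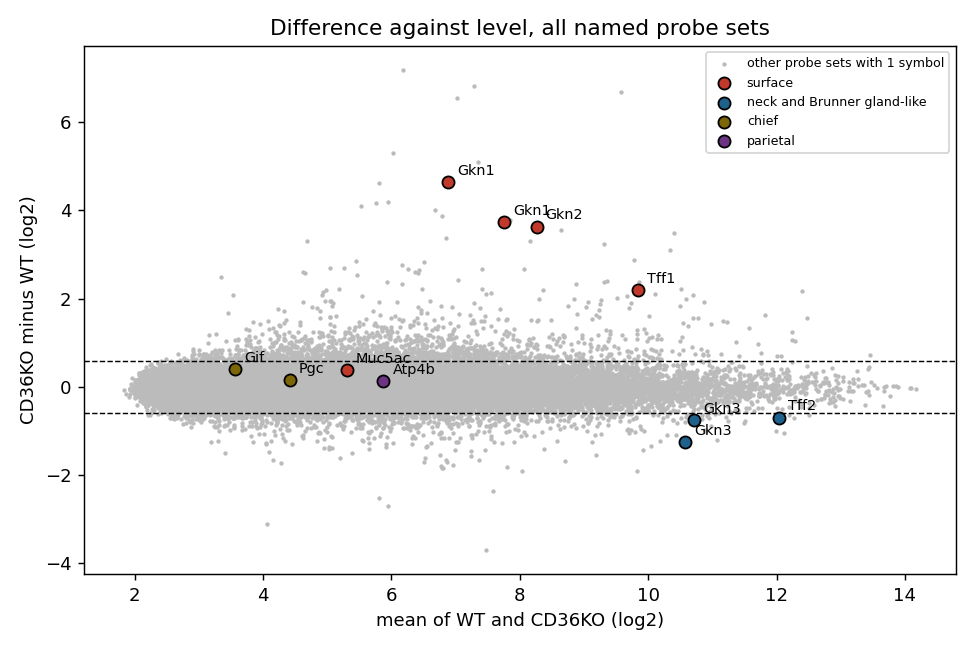
Difference between the pools (y axis, log2, CD36KO minus WT, 1 array each) against the mean of both pools (x axis, log2) for all 34958 probe sets with 1 symbol (grey), with the 11 probe sets of the gastric genes coloured by cell type and dashed lines at 1.5-fold. Gkn1, Gkn2 and Tff1 lie above the bulk of probe sets, Gkn3 and Tff2 along its lower edge, and Muc5ac, Gif, Pgc and Atp4b inside it.

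Other genes of the stomach were read from lists that hold none of the members. These lists were chosen with earlier results of these data known, so their counts are a description. Over all named genes, 3.81% were at least 1.5-fold higher and 2.6% lower. Of 12 other surface pit genes measured, 3 were at least 1.5-fold higher and 0 lower, with a median of 0.35. Anxa10, an annexin, differed most, at 3.89 in WT and 6.09 in CD36KO, but its WT value was below the filter and cannot be told from no signal, and its other probe set differed by 0.11. Capn9, a stomach calpain, was 1.57-fold higher. Ctse, the aspartic protease cathepsin E, differed by 0.51 at one probe set and 1.95 at the other, and Fer1l6 by 0.55. Cldn18, a stomach claudin named after its value was seen, was the remaining gene past 1.5-fold. Its difference was 0.74, between values below the filter, and 0.20 at its other probe set. Foxq1, also named after its value was seen, went the other way, by -0.50, and by -1.05 at its other probe set. The counts of 3 higher and 0 lower therefore hold only at the probe sets of highest mean.

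Of 5 other neck and Brunner gland genes, 1 was higher and 0 lower, with a median of -0.14. A4gnt, the glycosyltransferase that caps Muc6 glycans, differed by -0.14, and the water channel Aqp5 by -0.45, so neither was as far down as Gkn3 and Tff2. Galnt6, which starts O-glycans, differed by -0.19 (its other probe sets between 0.00 and 0.54). Spdef was the gene that was higher, with a difference of 0.92, and this regulator also acts in goblet cells. The 8 listed goblet cell markers had a median of 1.04, with 5 higher, 0 lower and 3 within 1.5-fold. Over all named genes, the shares were 3.81% higher and 2.6% lower. The goblet list too was chosen with earlier results of these data known, so nothing is read from its counts. The goblet markers ranged from 0.02 to 5.30, the latter for Retnlb, whose WT value was below the filter. Any link between Spdef and these markers was not tested.

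Other chief genes split, with 2 of 6 higher, 1 lower and a median of 0.13. Rnase1, a secreted ribonuclease, was 2.97-fold higher and is also a pancreas gene. Bhlha15, the regulator Mist1 of enzyme-secreting cells including those of the pancreas, was 1.53-fold higher (0.13 at its other probe set). Cym, the milk-clotting protease chymosin, was 2.40-fold lower, at 6.66 in WT and 5.40 in CD36KO. Pga5, a pepsinogen, read 4.34 and 4.01, and Lipf, gastric lipase, read 2.41 in both pools, all below the filter.

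Of 9 other parietal genes, 1 was lower and 0 higher, with a median of -0.24. The lower gene was Esrrg, an orphan nuclear receptor, at -1.38 with a CD36KO value below the filter, but its other probe sets lay between -0.32 and -0.11. Clic6 (-0.34), the potassium channel Kcnq1 (0.33) and the water channel Aqp4 (-0.24, with its other probe sets between 0.16 and 0.23) were within 1.5-fold. The median of this list is the Aqp4 value. Of the 8 gastric endocrine genes, 0 were higher and 0 lower past 1.5-fold, with a median of -0.07. Gast, the hormone gastrin of the antrum, read 3.88 and 3.81, below the filter, and Ghrl, the hormone ghrelin, differed by -0.56. Sst, the hormone somatostatin, differed by -0.29, the gastrin receptor Cckbr by 0.43 and the histamine-forming enzyme Hdc by 0.25.

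Sox2, a transcription factor of the foregut and stomach, read 2.12 in WT and 2.31 in CD36KO, below the filter. Of 7 gastric regulators 1 was lower and 0 higher, with a median of 0.02. The lower gene was Pdx1, a regulator of duodenum and antrum, at -1.26, with no difference at its other probe set. Gata4 differed by -0.52 (0.16 at its other probe set), Foxa3 by 0.20 and Hhex by 0.02. Of 13 squamous genes of the mouse forestomach measured, 8 were below the filter in both pools, 0 were higher and 1 was lower, with a median of -0.18. The lower gene was Sbsn, suprabasin, at -0.67 (its other probe sets between -0.67 and 0.08), while Sprr3 (-0.30), Sprr1a (-0.20) and the keratin Krt6a (-0.16) were within 1.5-fold.

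**Figure D3:**
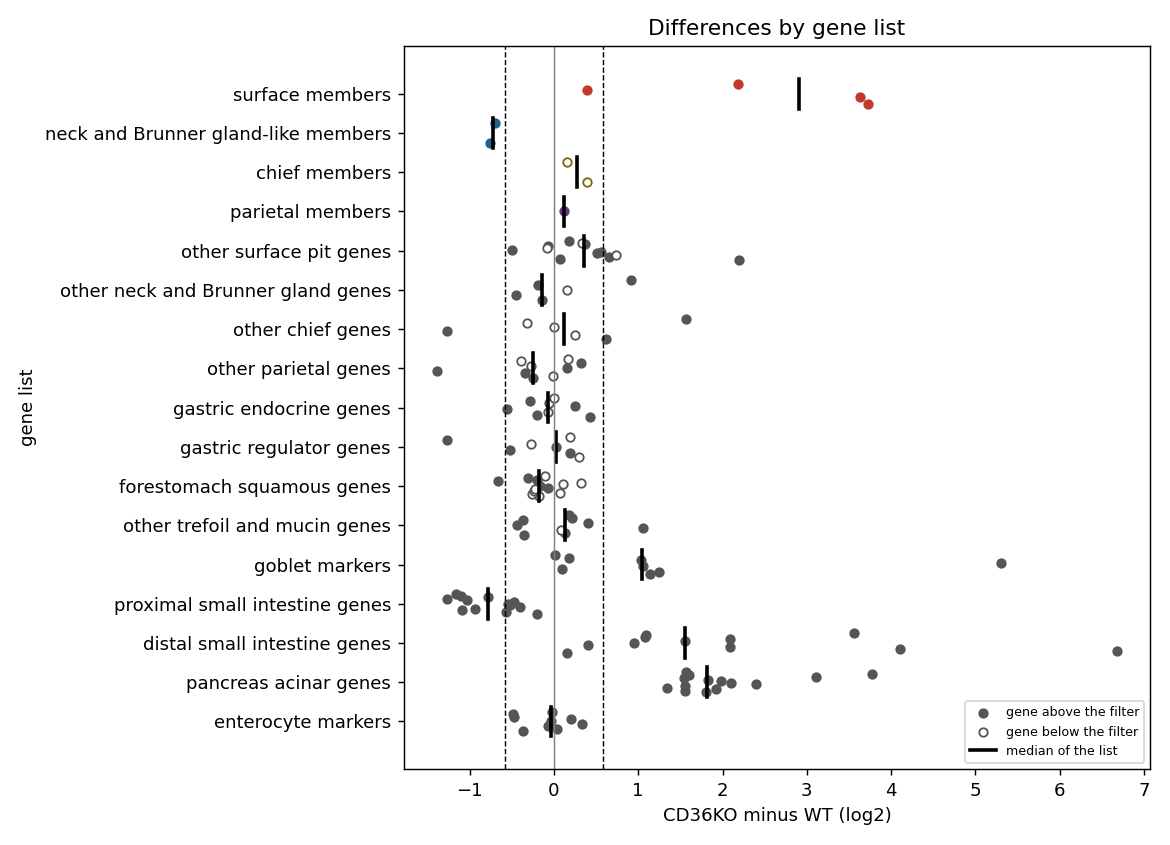
Difference between the pools (x axis, log2, CD36KO minus WT, 1 array each) for each measured gene of the lists (y axis), at the probe set of highest mean. Filled points passed the expression filter, open points did not, bars are list medians and dashed lines mark 1.5-fold; the surface members spread from 0.39 to 3.73, while the medians of the lists of other gastric genes lay between -0.24 and 0.35.

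Among the trefoil and mucin genes that are no members, 1 of 9 was higher, Muc2, and 0 were lower, with a median of 0.13. The membrane mucins Muc20 (-0.43, with 0.17 at its other probe set), Muc3 (0.40) and Muc4 (-0.36, with its other probe sets between 0.28 and 0.35) were within 1.5-fold.

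Markers of other tissues and signs of RNA quality also differed between the pools. All 14 pancreas acinar genes measured were at least 1.5-fold higher, with a median of 1.82. Of 11 distal small intestine genes 9 were higher and 0 lower (median 1.55), and of 13 proximal ones 7 were lower and 0 higher (median -0.79). The lists share some genes. Pdx1 and Gata4, named above as gastric regulators, are counted again in the proximal list, and Lct is in the proximal and enterocyte lists. Rnase1 is in the chief and pancreas lists, Muc3 in the mucin and distal lists, and Muc2 and Tff3 in the mucin and goblet lists. Over all named genes the shares were 3.81% higher and 2.6% lower. The lists were chosen with earlier results of these data known, so nothing is read from their counts. The 9 enterocyte markers measured had a median of -0.04, and 0 of them passed 1.5-fold. The largest differences were those of Fabp6 (6.67) in the distal list and Reg2 (3.77) in the pancreas list. In the proximal list it was that of Pdx1 (-1.26, with no difference at its other probe set), and among the enterocyte markers that of Mttp (-0.48). Fabp6 thus differed further than Gkn1 and Gkn2. In the control probe sets for RNA quality, the 3' end of beta-actin exceeded its 5' end by 2.28 (log2) in the WT pool but by 1.34 in the CD36KO pool, and for GAPDH the excess was 1.28 and 0.71. Summed on the linear scale and given as log2, the pancreas acinar list stood at 13.18 in WT and 15.03 in CD36KO, and the squamous list at 8.46 and 8.20. Of the 13 squamous genes, 8 were below the filter in both pools, so part of that sum cannot be told from no signal. The part of these tissue and RNA quality differences in the values of Gkn1, Gkn2, Tff1, Gkn3 and Tff2 was not tested. Cd36 was lower in CD36KO at all 3 of its probe sets, by 3.56-fold, 3.17-fold and 2.33-fold; where the probes lie relative to the deleted part is unknown here, so this is an incomplete check of the labels.

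For each member above the filter, the 2 genes nearest to it in their WT and CD36KO values were found among 11980 other genes above the filter. Nearness was the Euclidean distance over the log2 values, which rests on 2 arrays. Gkn1 lay nearest to Reg2, a pancreatic Reg protein (distance 0.14), and Igk, an immunoglobulin kappa probe set (0.64). Igk (0.27) and Tmigd1 (0.53), an epithelial membrane protein, lay nearest to Gkn2. Tff1 had Reg4 (0.13), a secreted lectin, and Mep1a (0.26), a brush border protease. Gkn3 had Cyp2d26 (0.11), a cytochrome P450, and Ndufa5 (0.14), a subunit of mitochondrial complex I. Tff2 had Cyp3a13 (0.14), a cytochrome P450, and Rbp2 (0.15), the enterocyte retinol-binding protein. The genes nearest to Muc5ac were Smpx and Pitx1, at distances of 0.020 and 0.028, and those nearest to Atp4b were Tpmt and Fam71f1, at 0.012 and 0.015.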

How the data were processed

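Expression was read on 2 Affymetrix arrays, 1 per genotype, each from RNA of 3 animals that was extracted with TRIzol and pooled, with biotinylated cRNA made from 100 ng, per the labels' protocols. The values were deposited by the authors on a log2 scale for 45101 probe sets; the base follows from their maximum of 14.19, which as a natural logarithm would exceed the 65535 of a 16-bit scanner. How they were summarized and normalized: not given in the sources used here. Column medians were 4.38 and 4.38.

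Probe sets were named from the array annotation: 34958 had 1 symbol, 932 had several and 9211 were unnamed. Listed symbols were matched directly or as a synonym in the RefSeq table of GRCm38.p6. The difference is CD36KO minus WT, and a gene takes its probe set of highest mean. All genes were counted, with those under the filter of 4.51 marked. With 1 array per group no test was run. The members and lists were chosen with earlier results of these data known. All members, fixed markers (Atp4a, Pga5, Lipf, Gast, Sox2, Tff3, Muc2 and Cd36) and the 2 genes nearest to each member are named. Flanking genes were named by position. In each list of stomach, trefoil and mucin genes, up to 4 genes of largest difference above the filter are named. In the goblet, intestinal, pancreas and enterocyte lists this was narrowed to the gene of largest difference. Cldn18 and Foxq1 were named after their values were seen. Lct is named only because lists share it. Alternatives were median centring, quantile normalization, lowess removal (fraction 0.3), other probe set rules, filters and thresholds. Scripts were tested on simulated data. The tools were NumPy 2.4.6, pandas 2.3.3, matplotlib 3.10.9 and statsmodels 0.14.6 under Python 3.11.15.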

Additional observations from a re-analysis of the deposited data

How the results depend on the processing

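Across 5 alternatives of scaling and probe set choice, 43 of 45 differences of single members moved by less than 0.1 (log2), and 0 of those past 1.5-fold changed sign. The other 2 came from the mean over probe sets, where Gkn1 differed by 4.18 and Gkn3 by -1.0. Part of this agreement was fixed in advance. Only Gkn1 and Gkn3 have more than 1 probe set, so probe set choice could not move the other members. For Gkn1 and Gkn3, the probe set of smallest difference was the one already used. Median centring shifts all genes alike, and the column medians were 4.38 and 4.38. At thresholds of 2-fold and 3-fold, 0 members were lower, against 2 at 1.5-fold, because Gkn3 and Tff2 lie between 1.5-fold and 2-fold at the probe set used. With only members above the 75th percentile of signal, 5 were left and their median difference was 2.19. No replicate could be left out, and no paired analysis was possible because each genotype has 1 array. The ratios of Gkn1 and Gkn2 to Gkn3 with the other probe set were computed after the data were seen. Signal over background is unknown for all members, which most limits Gif, Pgc and the WT value of Gkn1. It also limits Muc5ac, whose values were 0.60 and 0.99 above the filter.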
